A study of Homo sapiens with 8 samples.

Results

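The genes described here are 9 members of the GATA family and its cofactors: GATA1, GATA2, GATA3, GATA4, GATA5, GATA6, TRPS1, ZFPM1 and ZFPM2. They were chosen by name. GATA2 chromatin binding around them was taken from peak lists of GATA2 ChIP-seq. A peak counted for a gene when its summit, the position of highest enrichment, lay inside the RefSeq span of the gene on build GRCh38 or within 200 kb of either end. Overlapping peaks, by 1 bp or more, were joined across lists into 1 region. This gave 127 peaks in 58 regions near the 9 genes, out of 71653 peaks in 36122 regions in all. The cells were VCaP, an established human prostate cancer line whose labels describe it as castrate-resistant. All cells were kept for 72 h without steroids. The JQ1 samples received 1 µM JQ1 for 24 h, and the other samples are labelled as non-treated, while the growth protocol names a DMSO control, so they are called untreated here. Each group had 2 GATA2 precipitates with a peak list each, and the 4 input samples enter only through the authors' peak calling.

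GATA factors are zinc-finger proteins that bind short DNA words built around the letters GATA. GATA1, GATA2 and GATA3 are best known from blood cells, and GATA4, GATA5 and GATA6 from heart, gut and other organs, while GATA2 and GATA3 also act in epithelia, GATA2 in that of the prostate. TRPS1 carries a single GATA-type zinc finger and represses transcription, and ZFPM1 and ZFPM2, also called FOG1 and FOG2, bind the N-terminal finger of GATA proteins and bring in corepressors. In mouse blood progenitors GATA factors bind enhancers of their own genes, and exchange of GATA2 for GATA1 at such sites is a textbook case of cross-regulation within a family. JQ1 is a BET inhibitor: it keeps proteins of the BET family from binding acetylated histones at enhancers and promoters. The question put to these lists was where GATA2 sat near the genes of its own family, with and without JQ1. No RNA data were analysed here.

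No GATA2 peak reached a start site of the family for which RefSeq's window was at hand. The RefSeq table used here holds 11 promoter windows of 300 bases, from 250 bases before to 50 bases after a start, for 5 of the 9 genes (GATA1, GATA2, GATA3, GATA6 and ZFPM1), on GRCh38.p14. None of the 11 was overlapped by a GATA2 region in any list, and among 35116 windows of all genes the share was 0.806%. The 0 of 11 is near that share and is no result about the family. The preferred GATA site has an A or a T before the letters GATA and an A or a G after them, and was searched on both strands. It was in 0 of the 11 windows, against 25.0% of all windows. The bare core GATA, or TATC for the other strand, was in 3 of the 11 windows, all of them at GATA3, and in 49.7% of all windows. The preferred site contains the core, and the absence of letters speaks only of these windows. A few of the windows are printed 5′ to 3′ on the strand of the gene, with any core in capitals: both GATA2 windows, since they are the start sites of the precipitated factor itself, GATA3 windows with a core, and the ZFPM1 window, the nearest of all to a peak.
GATA2 chr3:128493152-128493451 (minus strand): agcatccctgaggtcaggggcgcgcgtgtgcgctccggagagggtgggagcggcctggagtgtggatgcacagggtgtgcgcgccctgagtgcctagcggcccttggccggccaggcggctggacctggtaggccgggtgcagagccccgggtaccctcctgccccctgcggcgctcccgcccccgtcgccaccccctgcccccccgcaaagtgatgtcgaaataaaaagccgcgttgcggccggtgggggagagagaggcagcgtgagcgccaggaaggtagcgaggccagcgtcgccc
GATA2 chr3:128488481-128488780 (minus strand): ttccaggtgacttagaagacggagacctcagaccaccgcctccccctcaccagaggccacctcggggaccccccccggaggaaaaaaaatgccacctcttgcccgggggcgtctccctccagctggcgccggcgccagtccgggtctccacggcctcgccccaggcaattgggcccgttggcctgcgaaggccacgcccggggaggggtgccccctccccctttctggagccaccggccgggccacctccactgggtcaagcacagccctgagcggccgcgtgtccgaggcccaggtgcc
GATA3 chr10:8049604-8049903 (plus strand): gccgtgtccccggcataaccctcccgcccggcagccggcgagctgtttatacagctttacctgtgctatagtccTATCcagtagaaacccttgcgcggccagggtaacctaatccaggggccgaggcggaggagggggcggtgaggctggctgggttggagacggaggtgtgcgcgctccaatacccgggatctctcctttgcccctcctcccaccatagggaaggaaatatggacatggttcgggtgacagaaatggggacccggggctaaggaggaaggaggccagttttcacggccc
GATA3 chr10:8054438-8054737 (plus strand): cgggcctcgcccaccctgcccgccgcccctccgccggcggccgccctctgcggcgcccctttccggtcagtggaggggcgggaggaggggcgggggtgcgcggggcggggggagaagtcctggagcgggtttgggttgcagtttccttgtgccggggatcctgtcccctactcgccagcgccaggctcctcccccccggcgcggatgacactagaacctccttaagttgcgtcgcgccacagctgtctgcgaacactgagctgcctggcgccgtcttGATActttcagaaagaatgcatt
ZFPM1 chr16:88453030-88453329 (plus strand): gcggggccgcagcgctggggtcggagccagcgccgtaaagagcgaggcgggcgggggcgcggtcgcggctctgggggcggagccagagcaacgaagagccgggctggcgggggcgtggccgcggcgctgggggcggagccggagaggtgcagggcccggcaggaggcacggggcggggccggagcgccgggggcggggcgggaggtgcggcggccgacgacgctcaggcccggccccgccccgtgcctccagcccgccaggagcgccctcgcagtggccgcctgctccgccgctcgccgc

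In the GATA3 windows that start at 8049604 and 8054438 the core began at base 75 and base 278 of the window, counted from 1 at its 5′ end. The GATA3 window that starts at 8060207, which is not printed, held its core at base 12. The nearest summits to the GATA2 window at 128493152 lay 689 and 32.1 kb away in JQ1 replicates 1 and 2, against 57.8 and 57.8 kb in untreated replicates 1 and 2. At the first GATA3 window, which starts at 8045083, they lay 60.4 and 7.10 kb away under JQ1, against 82.2 and 7.09 kb without it. At ZFPM1 a summit lay 0.722 kb from the window in untreated replicate 1, and the nearest in untreated replicate 2 was 911 kb away. In JQ1 replicates 1 and 2 the nearest to that window were 4673 and 492 kb away.

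The 4 lists differed in length more within a treatment than between treatments. JQ1 replicates 1 and 2 held 4974 and 32404 peaks, against 6902 and 27373 peaks in untreated replicates 1 and 2. The strength of a peak is given here as the −log10 of the authors' q-value and as their fold enrichment, the fragment pileup at the summit over the local background. Whole fragments at each summit were recovered from the fold and the p-value. Their median per peak was 20 and 24 in the JQ1 lists and 22 and 37 in the untreated lists. The lowest background in a list, which follows the depth of the library, was 1.13 and 1.56 fragments under JQ1 and 1.25 and 1.96 fragments without it. A peak absent from a list was not called there, which is not the same as no binding in the cells, and the parts of depth and of enrichment in the short replicate 1 lists were not tested. VCaP is a line with an uneven genome, and the copy number of each gene was not measured here.

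Among the genes themselves, regions were unevenly spread. ZFPM2 had 24 regions, GATA3 had 13, GATA2 and GATA6 had 6 each, GATA4 had 5, ZFPM1 had 2, GATA1 and TRPS1 had 1 each, and GATA5 had none. The median over the 9 genes was 5 regions, and over 20037 protein-coding genes it was 4 regions. In the listing of all 58 regions, 24 lay inside the span of a member and 34 outside, and for 16 the nearest protein-coding gene was another gene. The genes differ in length, so the number per 100 kb of gene and window is also given: 3.02 at GATA3, 2.71 at ZFPM2, 1.45 at GATA2, 1.39 at GATA6 and 1.04 at GATA4, against a median of 0.935 over all genes. GATA3 was reached or passed by 6.56% of all genes in number of regions and by 2.87% in number per 100 kb. ZFPM2 was reached by 0.594% of genes in number, and by 4.72% per 100 kb. GATA2 was reached by 37.0% of genes in number, and by 28.5% per 100 kb.

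**Figure D1:**
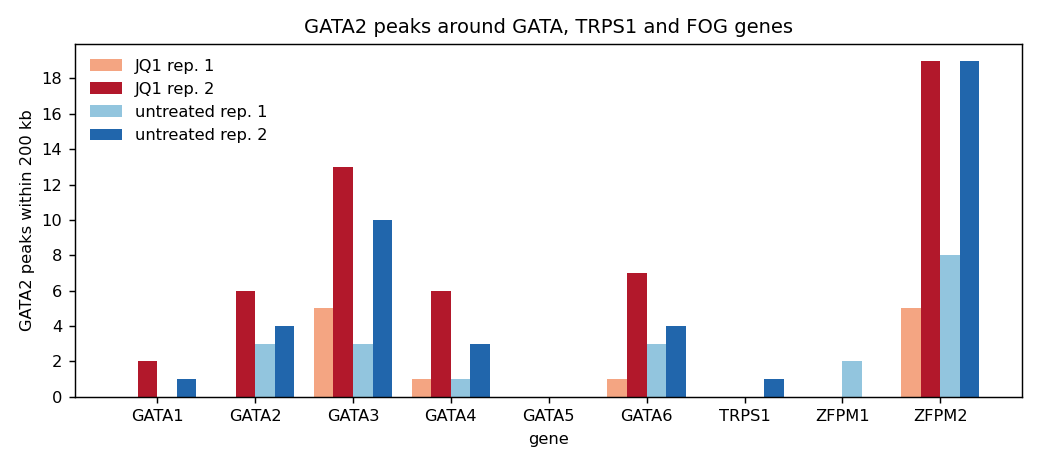
Number of GATA2 peaks with a summit within 200 kb of each of the 9 genes, in each of the 4 lists, with JQ1 left of untreated. GATA3 and ZFPM2 carried most peaks, the replicate 2 lists stood above the replicate 1 lists of the same treatment at most genes, and GATA5 had no peak.

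GATA2 peaks within 200 kb of its own gene were distal, with 5 of 6 regions on the downstream side and none inside the gene. GATA1, GATA3 and GATA6 also had no region inside, and the GATA2 span makes up only 13.8 kb of a window of 414 kb. GATA2 was the nearest protein-coding gene to only 1 of its 6 regions, and EEFSEC was the nearest to the others. No share over all genes is given here for the side, for regions inside a gene or for the nearest gene. GATA2 (gene ID 2624) lies on the minus strand of chromosome 3 at 128479422 to 128493201, a span of 13.8 kb. It had 0 and 6 peaks within 200 kb in JQ1 replicates 1 and 2, against 3 and 4 peaks in untreated replicates 1 and 2. JQ1 replicate 1 was thus the only list with no peak there, its nearest peak being 688.8 kb from the gene, while JQ1 replicate 2 had the most, so the groups overlapped. On log2 of the number plus 1, the difference of JQ1 minus untreated was −0.76, with p = 1 in an exact permutation of the 4 lists (two-sided). No p below 0.333 is possible with 2 lists against 2. The labels do not say that replicates came from separate cultures, so p-values measure only the spread between these lists.

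A set of 3 GATA2 regions recurred in both untreated lists and in JQ1 replicate 2. The strongest had its summit at 128362410, 117 kb downstream of GATA2 and inside EEFSEC, which encodes an elongation factor for selenocysteine. Its −log10 q was 45.7 in JQ1 replicate 2, against 11.3 and 38.1 in untreated replicates 1 and 2. Its fold was 18.0 in JQ1 replicate 2, against 7.84 and 11.2 in the untreated lists, while the fragments at the summit were 45 under JQ1 against 19 and 80. The order of JQ1 replicate 2 and untreated replicate 2 therefore depends on the measure: their log2 ratio was 0.68 by fold and −0.51 by fragments scaled to the lowest background of each list, a measure called the scaled summit level below.

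The next region, at 128339624, lay 140 kb downstream, also inside EEFSEC. Its −log10 q was 14.1 in JQ1 replicate 2, against 7.01 and 33.4 in the untreated lists, and its fold was 7.16 against 5.12 and 13.3. JQ1 replicate 2 stood between the untreated lists on both measures. The last of them, at 128435386, lay 44.0 kb downstream of GATA2 and 9.16 kb from EEFSEC. Its −log10 q was 17.2 in JQ1 replicate 2, against 7.40 and 15.2 in the untreated lists, with 25 fragments against 18 and 41. The region at 128286006 was in both replicate 2 lists, with −log10 q of 19.1 under JQ1 and 16.6 without it. Of the other regions, both in JQ1 replicate 2 alone, the one at 128525552 was the only region on the upstream side of GATA2, 32.4 kb from the gene, with a −log10 q of 6.01.

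The absence of these 3 regions from JQ1 replicate 1 was set beside regions of like strength. Across all regions found in both untreated lists, 1666 had a −log10 q in untreated replicate 1 within the range of the 3 GATA2 regions, 7.01 to 11.3. Of these, 637, or 38.2%, were found in JQ1 replicate 1. Most regions of this strength were thus missing from that list as well.

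**Figure D2:**
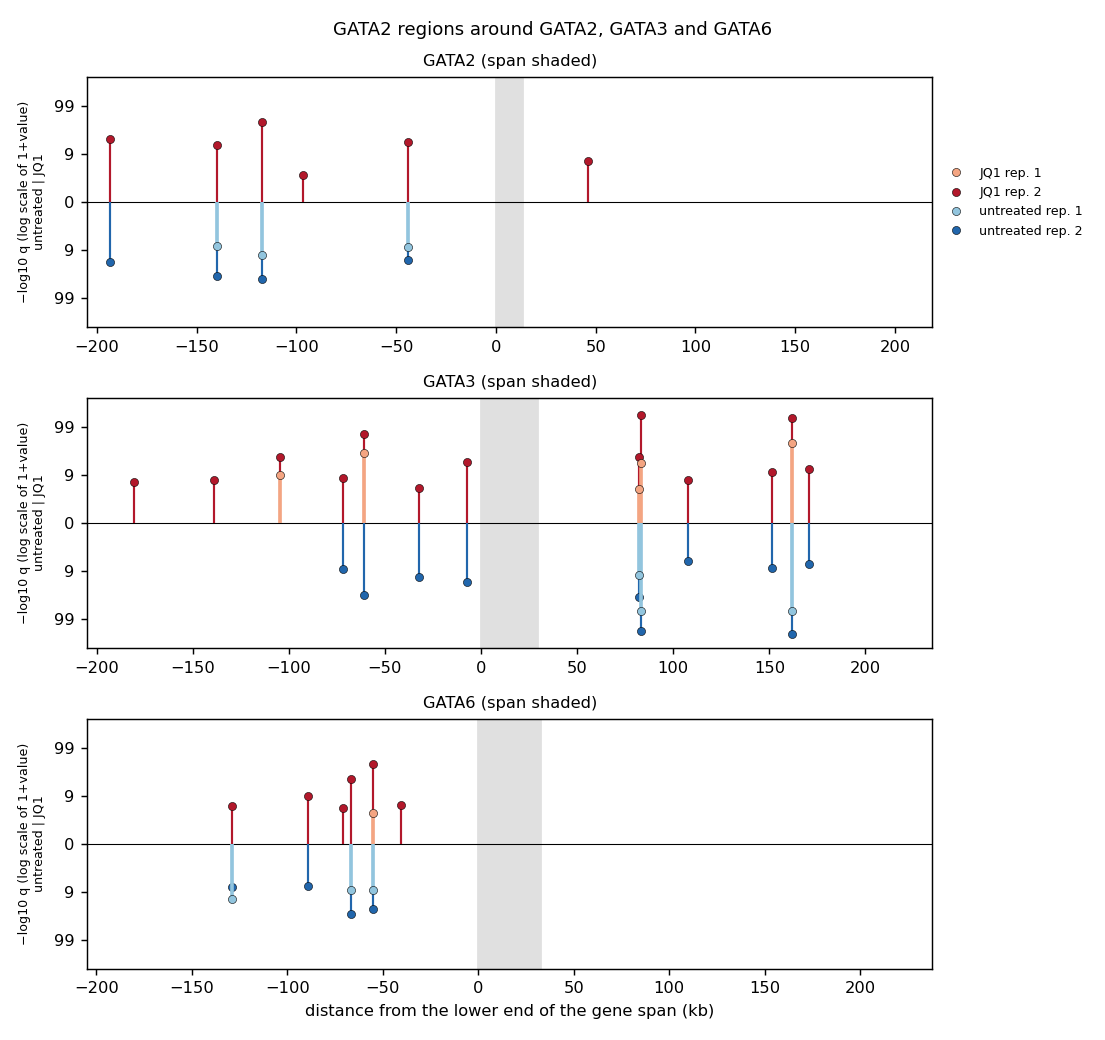
GATA2 regions around GATA2, GATA3 and GATA6, by the distance in kb of each region from the lower genome coordinate of the gene, whose span is shaded. Stems give the −log10 of the authors' q-value on a log axis of the value plus 1, upwards for the JQ1 lists and downwards for the untreated lists. GATA2 is on the minus strand, so all but 1 of its regions, left of it, are downstream, while those left of GATA6 are upstream, and no region overlapped a shaded span.

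GATA3 held the strongest GATA2 peaks of the family, by q-value in each of the 4 lists. GATA3 (gene ID 2625), a factor of T cells and of breast epithelium, lies on the plus strand of chromosome 10 at 8045333 to 8075198, a span of 29.9 kb. It had 5 and 13 peaks within 200 kb in JQ1 replicates 1 and 2, against 3 and 10 peaks in untreated replicates 1 and 2. JQ1 had more peaks within each replicate number, but the replicate 1 and 2 lists of each treatment lay further apart than the treatments, and the groups overlapped. The log2 ratio of the geometric means was 0.56, with an exact permutation p of 0.667. All 13 regions lay outside the gene, and 6 of them were inside TAF3, the upstream neighbour, which encodes a subunit of the general factor TFIID.

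Downstream of GATA3, 3 regions were present in all 4 lists. The region at 8128747, 53.5 kb past the end of the gene, had a −log10 q of 16.9 and 173 in JQ1 replicates 1 and 2, against 66.0 and 175 in untreated replicates 1 and 2. It had 35 (95% Poisson interval 24.4 to 48.7) and 126 (105 to 150) fragments at the summit under JQ1, against 73 (57.2 to 91.8) and 211 (183 to 241) without it. Intervals cover counting error only. Within each replicate number fragments were lower under JQ1, with no overlap of the intervals, before any scaling for depth. The groups overlapped, since JQ1 replicate 2 stood above untreated replicate 1. By fold the replicates went opposite ways: fold was 7.12 and 43.8 under JQ1, against 17.6 and 34.8 without it. The log2 ratio of fold was −1.31 in replicate 1 and 0.33 in replicate 2, and of the scaled summit level −0.91 and −0.42. This region was among the top 17.4% and 0.395% of peaks by q-value in the JQ1 lists and the top 1.65% and 0.424% in the untreated lists.

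The region at 8207095, 132 kb past GATA3 and inside the long noncoding RNA gene LOC107984205, had a fold of 19.8 and 35.7 under JQ1, against 24.4 and 55.8 without it. JQ1 was lower within each replicate, with log2 ratios of −0.30 and −0.64 by fold and −0.25 and −0.40 by the scaled summit level, while the groups overlapped. It was among the top 1.65% and 0.679% of peaks in the JQ1 lists and the top 1.74% and 0.150% in the untreated lists, so it ranked high in all 4. Its neighbour at 8127629 stood 1118 bp before the summit at 8128747. Its −log10 q was 4.02 and 22.3 under JQ1, against 11.2 and 33.4 without it.

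Of the 7 regions upstream of GATA3, JQ1 replicates 1 and 2 held 2 and 7, against 0 and 4 in untreated replicates 1 and 2. The region at 7984600, 60.7 kb before GATA3, had a −log10 q of 27.9 and 68.8 in JQ1 replicates 1 and 2, against no peak in untreated replicate 1 and 29.8 in untreated replicate 2. Its fold was 13.5 and 21.1 under JQ1, against 14.2 in untreated replicate 2. The region at 7940552, 105 kb before GATA3, had a peak in each JQ1 list and none in the untreated lists. It had −log10 q of 8.83 and 22.6, fold of 7.20 and 11.3, and 16 and 28 fragments in JQ1 replicates 1 and 2. The region nearest to the gene, at 8037985 and 7.35 kb before it, was in both replicate 2 lists, with a fold of 9.76 under JQ1 and 9.80 without it.

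GATA6 had called regions only on its upstream side. GATA6 (gene ID 2627), known for gut, lung and heart development, lies on the plus strand of chromosome 18 at 22169589 to 22202528. Its 6 regions stood 40.4 to 129 kb before the gene, and it had 1 and 7 peaks in JQ1 replicates 1 and 2, against 3 and 4 peaks in untreated replicates 1 and 2. The region at 22114498, 55.1 kb upstream, was in all 4 lists, with −log10 q of 3.38 and 43.9 under JQ1, against 8.22 and 22.2 without it. Its fold was 3.88 and 16.5 under JQ1 and 6.67 and 8.16 in untreated cells, so that JQ1 was lower in replicate 1 and higher in replicate 2. By the scaled summit level the log2 ratio was 0.15 in replicate 1 and −0.01 in replicate 2, so that neither direction held on both measures.

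A further 2 GATA6 regions lacked a peak in JQ1 replicate 1 alone. The region at 22103109, 66.5 kb upstream, had a fold of 9.01 in JQ1 replicate 2, against 5.13 and 10.3 in the untreated lists. The region at 22040679, 129 kb upstream, had a fold of 4.83 in JQ1 replicate 2, against 8.45 and 4.17 in the untreated lists. By fold, JQ1 replicate 2 fell between the untreated lists in both. At 22040679 this did not hold by q-value, with a −log10 q of 5.00 in JQ1 replicate 2, against 13.2 and 6.88, nor by fragments, 13 against 21 and 35. The log2 ratio of the scaled summit level in replicate 2 was −1.10 there, with 2.4% of all regions as low, and −0.51 at 22103109.

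GATA4 was the only GATA gene with a region inside its span, which at 83.1 kb is also the longest of the GATA genes. GATA4 (gene ID 2626), a heart and gonad factor, lies on chromosome 8 at 11676935 to 11760002 and had 1 and 6 peaks in JQ1 replicates 1 and 2, against 1 and 3 peaks in untreated replicates 1 and 2. The region within the gene, at 11733372, had −log10 q of 34.9 in JQ1 replicate 2, against 4.11 and 62.6 in the untreated lists. Its fold was 12.2 in JQ1 replicate 2, against 4.51 and 23.6 in the untreated lists, and JQ1 replicate 1 had no peak. The region at 11539986, 137 kb away and inside BLK, a tyrosine kinase gene of B cells, had a peak in each JQ1 list and no other. Its −log10 q was 4.02 and 7.92, with 11 and 15 fragments, so it was a weak peak in either list.

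GATA1, GATA5 and TRPS1 had 1 region or none. GATA1 (gene ID 2623), the red-cell factor, lies on chromosome X at 48786590 to 48794311. Its sole region, at 48596097, was 190 kb upstream and 1.40 kb from WDR13, with a fold of 8.43 in JQ1 replicate 2 and 10.6 in untreated replicate 2. GATA5 (gene ID 140628), on chromosome 20 at 62463497 to 62475995, had no region, and its nearest peak was 231.1 kb away. Of all protein-coding genes, 10.4% had none. TRPS1 (gene ID 7227), on chromosome 8 at 115408496 to 115668975, had 1 region although its span is 260 kb long. That region, at 115804388, was in untreated replicate 2 alone, 135 kb from the gene, with −log10 q of 3.46 and 15 fragments.

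ZFPM2, the gene of the cofactor FOG2, carried the most GATA2 regions of the 9 genes. ZFPM2 (gene ID 23414) spans 486 kb of chromosome 8, at 105318438 to 105804539, and 21 of its 24 regions lay inside it. It had 5 and 19 peaks in JQ1 replicates 1 and 2, against 8 and 19 peaks in untreated replicates 1 and 2. The replicate 2 lists were equal, and JQ1 replicate 1, the shortest list, was the lowest. Of the regions, 4 were present in all 4 lists, all inside the gene, and 3 lacked a peak in JQ1 replicate 1 alone. When a 50% reciprocal overlap was asked for in place of 1 bp, only 2 ZFPM2 regions were in all 4 lists. Beside this stands a higher input-derived background: its median under ZFPM2 peaks was 3.26 and 3.70 fragments under JQ1 and 3.10 and 4.37 fragments without it, against 2.39 and 2.77, and 2.59 and 3.10, over all regions of the same lists. The part of copy number in this was not tested.

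The 4 shared ZFPM2 regions moved in different ways. At 105551851 the −log10 q was 8.0 and 131 in JQ1 replicates 1 and 2, against 18.4 and 56.7 in untreated replicates 1 and 2. Its fold was 4.53 and 24.4 under JQ1, against 8.34 and 19.2 without it, lower in replicate 1 and higher in replicate 2. Replicate 1 moved by −0.04 on the scaled summit level, and replicate 2 by 0.94. At 105558586 the fold was 8.21 and 22.5 under JQ1, against 5.12 and 19.3 in untreated cells, higher with JQ1 in each replicate, by 0.68 and 0.22 on the log2 scale. At 105786562 JQ1 was also higher in each replicate, with a fold of 6.30 and 12.5, against 4.91 and 9.12 without it. At 105520654 it was lower in each, with a fold of 3.93 and 4.69 under JQ1, against 7.43 and 9.34 without it. In the region at 105520654 the −log10 q was 2.54 and 11.3 under JQ1 and 20.8 and 23.4 in untreated cells, so that the groups did not overlap on either measure. Among the 8 shared member regions it was the only one of this kind, beside 2.41% of the 3236 shared regions with both JQ1 values lower by q-value and 4.73% by fold. In the other shared ZFPM2 regions the groups overlapped. By the scaled summit level these last 3 regions kept their directions, with log2 ratios of 0.92 and 0.45 at 105558586, 0.40 and 0.64 at 105786562, and −1.62 and −0.32 at 105520654.

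In ZFPM2, 3 regions had a peak in every list but JQ1 replicate 1, and in untreated replicate 1 they were among the weaker peaks, within the top 83.9%, 80.3% and 98.8% of that list at 105304516, 105524669 and 105770932. At 105304516 the fold was 5.54 in JQ1 replicate 2, against 4.39 and 9.27 in the untreated lists. At 105524669 it was 3.84 in JQ1 replicate 2, against 4.52 and 5.27, and at 105770932 it was 10.4 against 3.37 and 7.14. By fold JQ1 replicate 2 was thus below, between or above the untreated lists, depending on the region. By the scaled summit level it was below untreated replicate 2 in all 3, with log2 ratios of −0.65, −1.88 and −0.18.

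Some ZFPM2 sites lay at the ends of the range in the replicate 2 lists. The region at 105599995 had a fold of 16.4 in JQ1 replicate 2, against 3.47 in untreated replicate 2, with 67 against 44 fragments and −log10 q of 60.0 against 6.39. The log2 ratio of fold was 2.25, reached by 0.0425% of the 21173 regions with a peak in both replicate 2 lists. It was 0.93 by the scaled summit level, reached by 3.75%. The background there was 11.7 fragments in untreated replicate 2, the highest under any ZFPM2 peak of that list, and 3.14 fragments in JQ1 replicate 2. The region at 105524669 lay at the other end by the scaled summit level, with a log2 ratio of −1.88, as low in 0.0331% of those regions, and of −0.46 by fold. It had 13 fragments in JQ1 replicate 2, against 60 in untreated replicate 2. The region at 105581951 was in JQ1 replicate 2 alone, with −log10 q of 39.8 and 50 fragments. Of 9348 regions in that list alone, 12, or 0.128%, were as strong. These regions were picked after their values were seen, and none had a peak in JQ1 replicate 1.

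**Figure D3:**
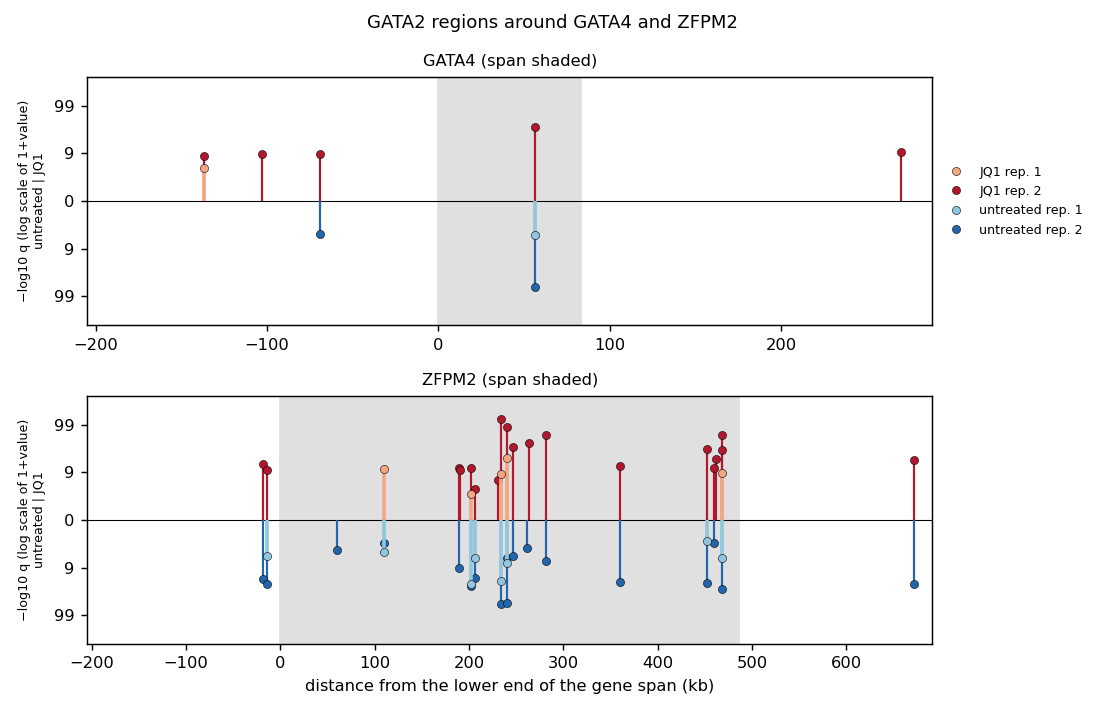
GATA2 regions around GATA4 and ZFPM2, by the distance in kb from the lower genome coordinate of the gene, whose span is shaded, with the −log10 of the authors' q-value on a log axis of the value plus 1, upwards for the JQ1 lists and downwards for the untreated lists. ZFPM2 held 21 of its 24 regions inside the shaded span, and GATA4 held 1 of 5.

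Beside the JQ1-separated regions at GATA3 and GATA4, only the ZFPM2 region at 105428747 was in both untreated lists and in neither JQ1 list, with −log10 q of 3.71 and 2.07 and fold of 3.42 and 2.91. A peak of JQ1 replicate 1, at 105427815 with −log10 q of 10.8, stood 932 bp from it. ZFPM1 (gene ID 161882), the gene of FOG1 on chromosome 16 at 88451769 to 88537031, had 2 regions near its start, both inside it and both in untreated replicate 1 alone. The ZFPM1 regions lay at 88454051 and 88455990, with −log10 q of 5.47 and 7.48 and with 12 and 14 fragments. Untreated replicate 2, the longer list, had no peak at either.

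**Figure D4:**
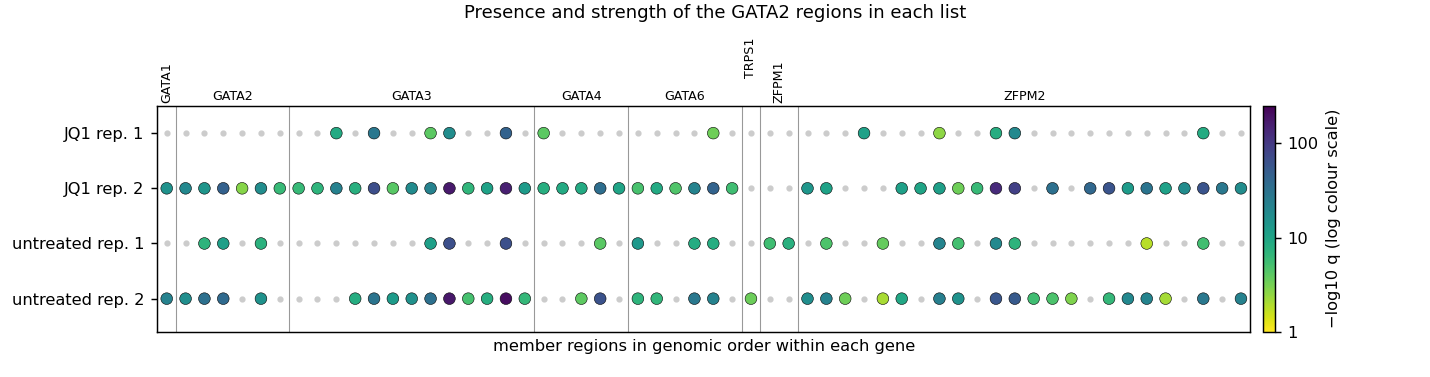
The 58 regions near the 9 genes, in genomic order within each gene along the horizontal axis, with a line of points for each list, the JQ1 lists above the untreated lists. Colour gives the −log10 of the authors' q-value on a log scale and a small grey point means that no peak was called. Of the regions, 8 were in all 4 lists, 10 in 3, 20 in 2 and 20 in 1.

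Taking the 58 regions as a whole, no difference between treatments exceeded the spread between replicates. The lists held 12 and 53 member peaks under JQ1 (32.5 ± 29.0, SD, n = 2), against 20 and 42 without it (31 ± 15.6, SD, n = 2). The log2 ratio of geometric means was −0.20, with p = 1 in the same exact permutation. It was −0.74 in replicate 1 and 0.34 in replicate 2, so the direction turned with the replicate. As a share of each list, member peaks made up 0.241% and 0.164% under JQ1 and 0.290% and 0.153% without it, a difference of −0.019 percentage points (exact permutation p = 1).

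Recurrence was read against all regions. Both JQ1 lists held 11 of the 58 regions, or 19.0% (95% Wilson interval 10.9% to 30.9%), beside 13.1% of all regions. Both untreated lists held 18, or 31.0% (20.6% to 43.8%), beside 17.6%, which lies below that interval. All 4 lists held 8, or 13.8% (7.16% to 24.9%), beside 8.96%. The intervals cover counting error only and take regions of 1 gene as independent, which they may not be, and 24 of the 58 belong to ZFPM2. JQ1-separated regions numbered 2, beside 0.377% of all regions, and untreated-separated regions 1, beside 0.620%. Of the 18 found in both untreated lists, 8, or 44.4% (24.6% to 66.3%), were also in both JQ1 lists, beside 50.8% of all such regions. In JQ1 replicate 2 alone 17 of these 18 were found, or 94.4%, beside 96.2%, and in JQ1 replicate 1 there were 8, beside 51.1%. Each of the 10 that were not kept lacked a peak in JQ1 replicate 1, and 1 of them also in JQ1 replicate 2. Of the 11 in both JQ1 lists, 8, or 72.7% (43.4% to 90.3%), were in both untreated lists, beside 68.6%. Both replicate 2 lists and no other held 17 of the 58, beside 38.0%, while JQ1 replicate 2 alone held 13, beside 25.9%, and JQ1 replicate 1 alone held 1, beside 0.202%. Untreated replicate 2 alone held 4, beside 13.3%, and untreated replicate 1 alone held 2, beside 0.634%.

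Counted by gene, recurrence near the family was close to that near all genes, while the shares for treatment-separated regions rest on 3 regions. A region in all 4 lists lay near 3 of the 9 genes (GATA3, GATA6 and ZFPM2), or 33.3%, beside 33.4% of protein-coding genes. A region in both JQ1 lists lay near 4, or 44.4%, beside 41.7%, and a region in both untreated lists lay near 5, or 55.6%, beside 53.2%. Any region lay near 8, beside 89.6%. A JQ1-separated region lay near 2 (GATA3 and GATA4), or 22.2%, beside 1.67%, and an untreated-separated one near 1 (ZFPM2), or 11.1%, beside 3.30%. With windows of 50 or 100 kb no JQ1-separated region was left near the family, and 1 was left at a q-value of 1e-05. The ZFPM2 window was 886 kb long and held 24 regions, and the shares were not matched for window length. The difference from all genes was not tested. The shares in all 4 lists or in both lists of a treatment are near the background and are no result about the family.

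The strength of the 8 shared regions did not differ by treatment beyond the spread. Their mean log2 fold was 2.66 and 4.11 under JQ1, against 3.09 and 4.08 without it, a difference of −0.21 (exact permutation p = 1). Over all 3236 shared regions it was 2.76 and 4.02, against 2.93 and 4.18, a difference of −0.17 (exact permutation p = 0.667). By the scaled summit level the differences were −0.12 for the members (p = 1) and −0.24 for all (p = 0.667) in the same exact permutation test. Within replicate 1, JQ1 had the higher fold in 2 of the 8 member regions, with a median log2 ratio of −0.55, beside 39.1% and −0.16 over 3271 regions. Replicate 1 had 3 of 8 higher by the scaled summit level, with a median of −0.15, beside 32.8% and −0.22, so the larger fall of the members by fold was not seen on that measure. Within replicate 2 it was higher in 18 of 35, with a median of 0.03, beside 44.4% and −0.10 over 21173 regions. By the scaled summit level it was higher in 13 of those 35, with a median of −0.19, beside 35.3% and −0.20, and 9 of the 35 regions, 3 of them at GATA2, changed direction between the measures.

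**Figure D5:**
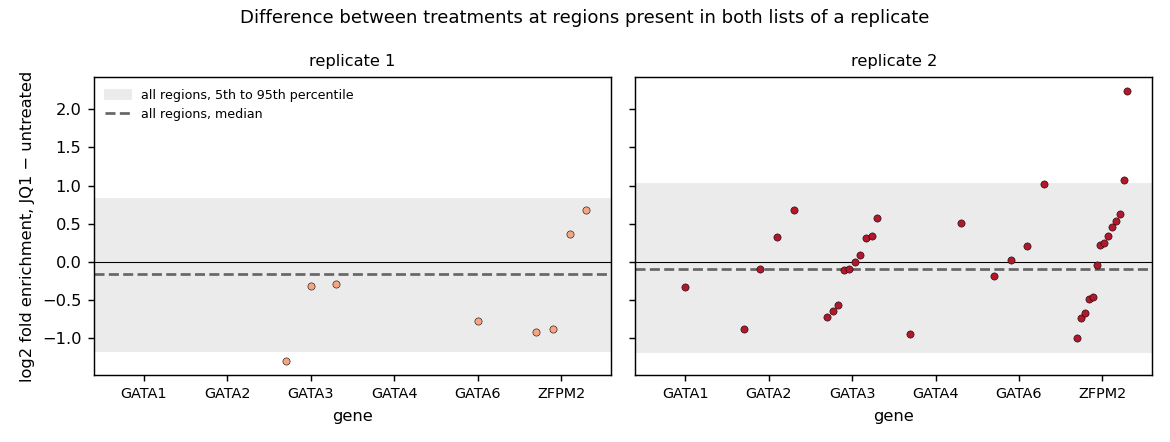
Log2 ratio of fold enrichment, JQ1 over untreated, for each member region with a peak in both lists of a replicate number, by gene. The grey band spans the middle of all regions from the 5th to the 95th percentile and the dashed line is their median. In replicate 1 most points lay below 0, with a median of −0.55 over 8 regions, and in replicate 2 they lay on both sides, with a median of 0.03 over 35 regions.

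The summits of the shared regions lay close together in the 4 lists. In the 8 member regions their spread over the 4 lists had a median of 15.5 bp and a range of 1 to 33 bp. Over the 3236 shared regions the median was 24 bp and the range 1 to 922 bp. Regions were joined by overlap of their peaks, which limits how far apart summits can lie. The spread in the member regions is no result about the family.

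Genes around the family were counted in the same way. The shares of all genes were 41.7% with a region in both JQ1 lists, 53.2% in both untreated lists and 33.4% in all 4. The gene lists were chosen with earlier results of these data known, so their shares are a description and no independent support. Of 15 partners of GATA factors in blood-cell complexes, 8 had a region in both JQ1 lists (53.3%), 10 in both untreated lists (66.7%) and 7 in all 4 (46.7%): TAL1, LYL1, LDB1, TCF12, ERG, ETV6 and KLF1. ETV6, an ETS-family repressor, had 4 and 14 peaks under JQ1, against 6 and 13 without it. ERG, the ETS factor that VCaP overexpresses through a gene fusion, had 5 and 15 under JQ1, against 6 and 9 without it. At both genes JQ1 replicate 1, the shortest list, had the fewest peaks and JQ1 replicate 2, the longest list, had the most. TCF12, an E-protein that pairs with TAL1, had 1 and 12 peaks under JQ1, against 3 and 10 without it, and LMO4, an adaptor that binds LDB1, had 1 and 6 against 1 and 7.

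Of 15 subunits of the corepressors that FOG proteins bring in, NuRD and CtBP, 3 had a region in both JQ1 lists (20.0%), 8 in both untreated lists (53.3%) and only RBBP7, a histone-binding NuRD subunit, in all 4. RBBP7 had 2 and 8 peaks under JQ1, against 1 and 5 without it. CTBP1 had 1 and 5 against 1 and 4, HDAC2, a deacetylase of NuRD, had 1 and 6 against 1 and 3, and CHD3, its remodelling enzyme, had 0 and 4 against 1 and 3. The untreated lists had more genes with a recurrent region than the JQ1 lists had, and the difference was not tested. The same held over all protein-coding genes, 53.2% against 41.7%, and in the other gene lists. Among 8 other genes with GATA-type zinc fingers, GATAD1 and RERE had a region in all 4 lists (25.0%). RERE had 3 and 18 peaks under JQ1, against 2 and 15 without it, and GATAD1 had 2 and 7 against 2 and 5. MTA2 and MTA3, which belong to NuRD, had 0 and 3 peaks and 0 and 4 peaks under JQ1, against 2 and 3 and against 0 and 3.

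Of 20 prostate transcription factors, 13 had a region in both JQ1 lists (65.0%), 17 in both untreated lists (85.0%) and 11 in all 4 (55.0%). Genes of this list had a median of 8.5 regions, against 4 over all protein-coding genes. The shares were not matched for number of regions or gene length. NR3C1, the glucocorticoid receptor gene, had 2 and 22 peaks under JQ1, against 6 and 21 without it. GRHL2, an epithelial factor, had 5 and 19 under JQ1, against 8 and 14 without it, and TP63, a basal-cell factor, had 5 and 13 against 7 and 15. In each of the 3 genes JQ1 replicate 1, which is the shortest list, had the fewest peaks.

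The genes most like GATA2 were sought by the summed difference in peak counts over the 4 lists, among genes on other chromosomes. FIG4, SORCS2 and SPPL3, taken by symbol from 4 genes tied at a difference of 0, had 0 and 6 peaks under JQ1 and 3 and 4 without it, as GATA2 had.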

How the data were processed

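GATA2 ChIP-seq was done in VCaP cells, with 2 JQ1 and 2 untreated precipitates and an input sample for each. Build hg38, the aligner Bowtie2, Picard and the peak caller MACS2 are named, without versions, per the submitters' processing notes. Each deposited list belongs, per the labels, to 1 precipitate, so peaks were called per sample. A line of a deposited list holds the interval, the offset of its summit, the caller's whole-number score (not used), fold enrichment as a linear ratio, a p-value and a q-value on the −log10 scale, all the authors' own values, used to describe, rank or filter peaks. The weakest q-value was 0.0495 and 0.0480 in the JQ1 lists and 0.0467 and 0.0492 in the untreated lists.

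Chromosomes 1 to 22, X and Y were used, leaving out 10 mitochondrial lines of JQ1 replicate 1 and 8 contig lines of untreated replicate 2. Overlapping intervals were merged (at least 1 bp), and the strongest peak of a list gave a region its value. Gene spans and promoter windows were RefSeq's, on GRCh38.p14, and no sequence of the regions was read. Whole fragments were recovered from fold (pseudocount 1) and p, within 0.005 of −log10 p. The untreated replicate 2 pileup fitted whole fragments only after scaling by 0.686. Exact two-sided permutation tests over the 4 lists gave p-values, with a threshold of 0.05. For GATA2, 1 was added to each number of peaks because 1 list had 0. Merging, permutation and fragment recovery were tested on simulated data. Python 3.11.15, numpy 2.4.6, pandas 2.3.3, scipy 1.17.1, statsmodels 0.14.6 and matplotlib 3.10.9 were used.

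The members, gene lists and tests were chosen with earlier results of these data known. The text names all 9 members, at most 4 genes of a gene list, ranked by how many peak lists had a peak there and then by peaks, the 3 genes on other chromosomes nearest to GATA2 in peak counts, and every region in 3 or 4 lists or separated by treatment. A gene that this rule names is not reported here. Windows of 50 and 100 kb, nearest genes only, a q-value of 1e-05, a 50% reciprocal overlap, lists of equal length, leaving out each replicate and a replicate block were tried. Alternatives for the gene lists and the scaled summit level were added after seeing the data. Shared replicate numbers deviated together with a correlation of 0.21 across 3236 regions, and the labels do not say what they mark.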

Additional observations from a re-analysis of the deposited data

How the results depend on the processing

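Each count of recurrent regions is limited by the short replicate 1 lists; why they are short was not tested. With replicate numbers left out in turn, the log2 ratio of member peaks ranged from −0.74 to 0.34, the difference in their share from −0.049 to 0.010 percentage points, the GATA2 difference from −2.00 to 0.49 and the difference in mean log2 fold from −0.43 to 0.020. Untreated member regions found under JQ1 ranged from 40% to 87.5%, regions in both remaining lists from 8 to 35, and regions in only 1 of them from 16 to 20 (JQ1 4 to 15, untreated 5 to 12). The signs thus turned with the replicate. With a replicate block the differences were −0.20, −0.019, −0.76 and −0.21, each with exact sign-flip p = 1, where the smallest possible is 0.5.

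With lists of 4974 peaks each, the log2 ratio of member peaks reversed to 0.44 and the difference in share to 0.040 percentage points, shared regions numbered 4, all 4 untreated recurrent regions (100%) were kept, and untreated-separated regions numbered 0. Counting only peaks nearest to GATA2 reversed its difference to 0.50. At 50 kb shared regions numbered 4 and separated ones 1, with 0 for JQ1, and at 100 kb separated ones numbered 1, with 0 for JQ1. At a q-value of 1e-05, shared regions numbered 5 and JQ1-separated ones 1. At a 50% reciprocal overlap, ZFPM2 had 2 regions in all 4 lists and 2 in both JQ1 lists, and GATA4 had 0 in both untreated lists. Genes with a shared region numbered 3 partners, 0 FOG corepressor subunits and 1 GATA-type gene at 50 kb, and 0 corepressor subunits and 0 GATA-type genes at a q-value of 1e-05. The causes were not tested.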
